A study of Mus musculus with 3 samples.

Results

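Cells with high and low levels of 4 oxygen-regulated genes were compared within cultured embryonic mouse kidneys. Each cell was given a score, the summed counts of Slc2a3 (a neuronal-type glucose transporter), Bnip3 (a mitophagy receptor), Ndrg1 (a stress-induced differentiation gene) and Ero1l (an oxidase of the endoplasmic reticulum) per 10000 nuclear counts of its well. On each of 2 plates of cultured cells, wells were chosen by this score alone: the 25% of wells with the highest score (high-score wells) were set against the 25% with the lowest (low-score wells). The high- and low-score groups held 50 wells each on the cultured E12.5 plate and 75 wells each on the cultured E11.5 plate, together 250 of the 500 kept wells of cultured cells and of 837 kept wells on all 3 plates. The 4 score genes chose the wells and are therefore described but not counted as findings. The score is a transcript measure, and the oxygen tension around the cells is not among the deposited values.

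The study traced cells of the embryonic kidney by single-cell RNA sequencing on 384-well plates (SORT-seq, in which a sorter places a cell in each well and transcripts are counted by unique molecular identifiers). Both cultured plates came from C57BL/6 mice carrying LGR6-EGFP-IRES-CreERT2 and ROSA26-tdTomato, an inducible Cre at the Lgr6 locus with a red reporter. For the cultured E12.5 plate, kidneys explanted at embryonic stage E12.5 were grown for 5 days. For the cultured E11.5 plate, kidneys explanted at E11.5 were grown for 7 days by the sample's title but 5 days by its stage label. The medium was Dulbecco's modified Eagle medium with fetal calf serum and antibiotics, and the explants were dissociated with collagenase. The uncultured plate held E11.5 kidney cells from C57BL/6 mice with LGR6-EGFP-IRES-CreERT2 alone. The sources used here name no sort gate, tamoxifen treatment or number of animals. With 1 plate for each condition, and with cells of a plate sharing their culture and library, no p-value is given. The 95% intervals below cover counting error only.

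Low oxygen is sensed through hypoxia-inducible factors (HIFs). When oxygen is present, prolyl hydroxylases of the Egln family mark the HIF alpha subunits for destruction, and when it is scarce the alpha subunit pairs with Arnt and binds DNA at a short core, written ACGTG or GCGTG on either strand. The targets of this pathway import glucose, run glycolysis, export lactate, divert pyruvate away from mitochondria, modify collagen and signal to blood vessels, and in the developing kidney the pathway is known for driving Vegfa.

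The score ranged from 6.74 to 38.8 with a median of 11.49 in high-score wells of the cultured E12.5 plate, against 0 to 0.869 with a median of 0 in its low-score wells, where 33 wells had no count of any score gene. On the cultured E11.5 plate it ranged from 9.94 to 68.2 with a median of 17.0 in high-score wells, against 0 to 1.091 with a median of 0 in low-score wells, where 57 wells were at 0. The wells just outside the limits scored 6.737 below the high-score wells, whose lowest well scored 6.744, and 0.905 above the low-score wells on the cultured E12.5 plate. On the cultured E11.5 plate they scored 9.92 and 1.092. No gap separated the groups from the wells beside them. Of 15 wells labelled as controls on each cultured plate 14 scored 0, and the other scored 34.8 on the cultured E12.5 plate and 129.9, above every kept well, on the cultured E11.5 plate. Control wells held at most 557 nuclear counts on the cultured E12.5 plate and 528 on the cultured E11.5 plate, under the minimum for kept wells. In sums over wells, Bnip3 stood at 775 CPM (counts per 1000000 nuclear counts) in high-score wells against 13.5 CPM in low-score wells of the cultured E12.5 plate, and at 1025 against 11.9 CPM on the cultured E11.5 plate. Ndrg1 stood at 89.0 against 2.70 CPM and at 191 against 1.32 CPM, Slc2a3 at 180.2 against 6.76 CPM and at 318 against 6.59 CPM, and Ero1l at 156 against 17.6 CPM and at 448 against 9.23 CPM. These values follow from the choice of wells.

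**Figure D1:**
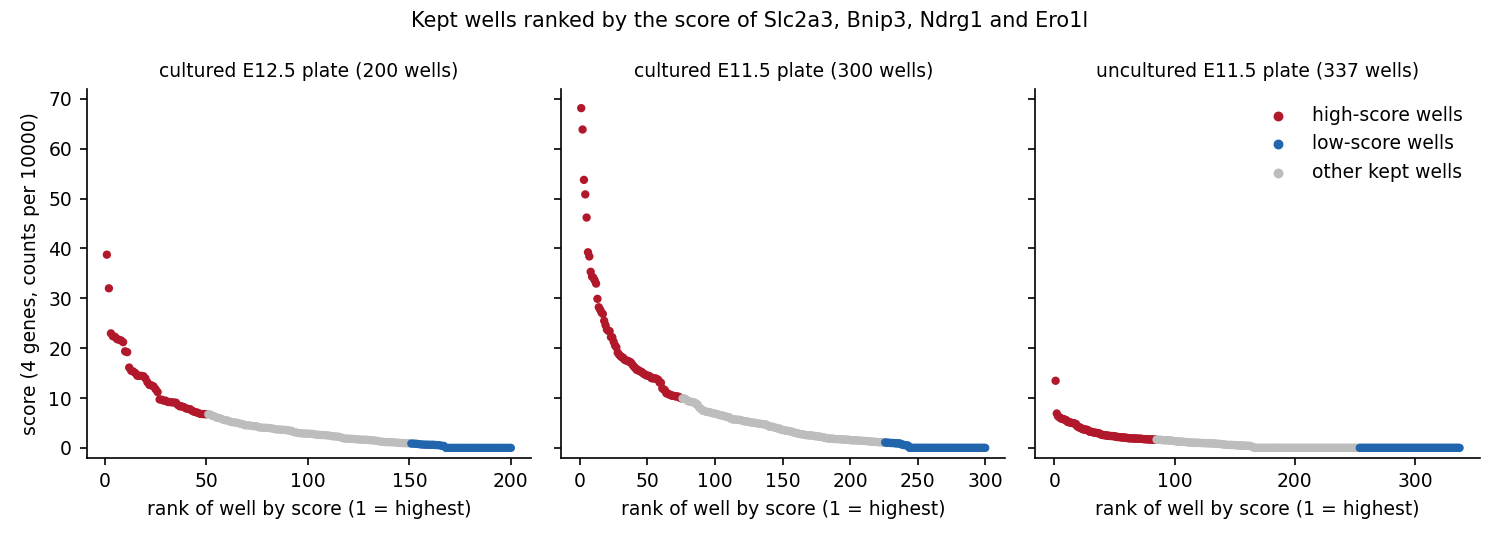
Score of each kept well (summed counts of Slc2a3, Bnip3, Ndrg1 and Ero1l per 10000 nuclear counts), ranked from the highest, on the 3 plates; red points are the high-score wells, blue points the low-score wells and grey points the other kept wells. The highest wells score 38.8, 68.2 and 13.5 (the next on the uncultured plate 6.899), no gap lies at the limits of the high-score and low-score wells of the cultured plates, and 172 of the 337 uncultured wells are at 0.

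The groups differed in depth, mitochondrial share and position as well as in the score. Median nuclear counts per well were 7858 in high-score wells and 11020.0 in low-score wells of the cultured E12.5 plate, and 7699 and 9167 on the cultured E11.5 plate. Mitochondrial transcripts made up a median of 1.72% of counts in high-score wells against 4.55% in low-score wells, and 2.25% against 4.07% on the cultured E11.5 plate. Nuclear counts per spike-in count were 20.9 against 30.1 on the cultured E12.5 plate and 22.1 against 23.4 on the cultured E11.5 plate. Rows A to G of the plate held 16 of 50 high-score and 31 of 50 low-score wells on the cultured E12.5 plate, and 24 and 32 of 75 on the cultured E11.5 plate. The part of depth, row and mitochondrial share in the results below was not tested except where a value restricted to like wells is given.

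Beyond the score genes, 4992 nuclear genes had at least 50 counts over both groups on each cultured plate, and a gene was called where its CPM differed at least 2-fold in the same direction on both. In the high-score wells 77 genes (1.54%) were higher and 55 genes (1.1%) were lower. On the cultured E12.5 plate alone 149 genes (2.98%) were at least 2-fold higher and 202 (4.05%) lower, and on the cultured E11.5 plate 150 (3%) and 172 (3.45%). The 77 shared genes are 51.7% of those higher on the cultured E12.5 plate and 51.3% of those higher on the cultured E11.5 plate. The 55 shared lower genes are 27.2% and 31.98% of the lower genes. Of the 77 higher genes, 35 belong to the lists of HIF targets and glycolysis, and of the 55 lower genes none does. With Bnip3 left out of the score 50 genes were higher and 30 lower, of which 32 and 13 are among the 77 and the 55, and with wells of over 3 times the median depth left out 58 were higher and 27 lower. In sums over wells, fewer cells of a type and less RNA per cell cannot be told apart. Where a pair of ratios is given below, the first is from the cultured E12.5 plate and the second from the cultured E11.5 plate. Across the 4992 genes, which are not independent replicates, the log2 ratios of both plates had a Pearson r of 0.50 and a Spearman rho of 0.36.

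**Figure D2:**
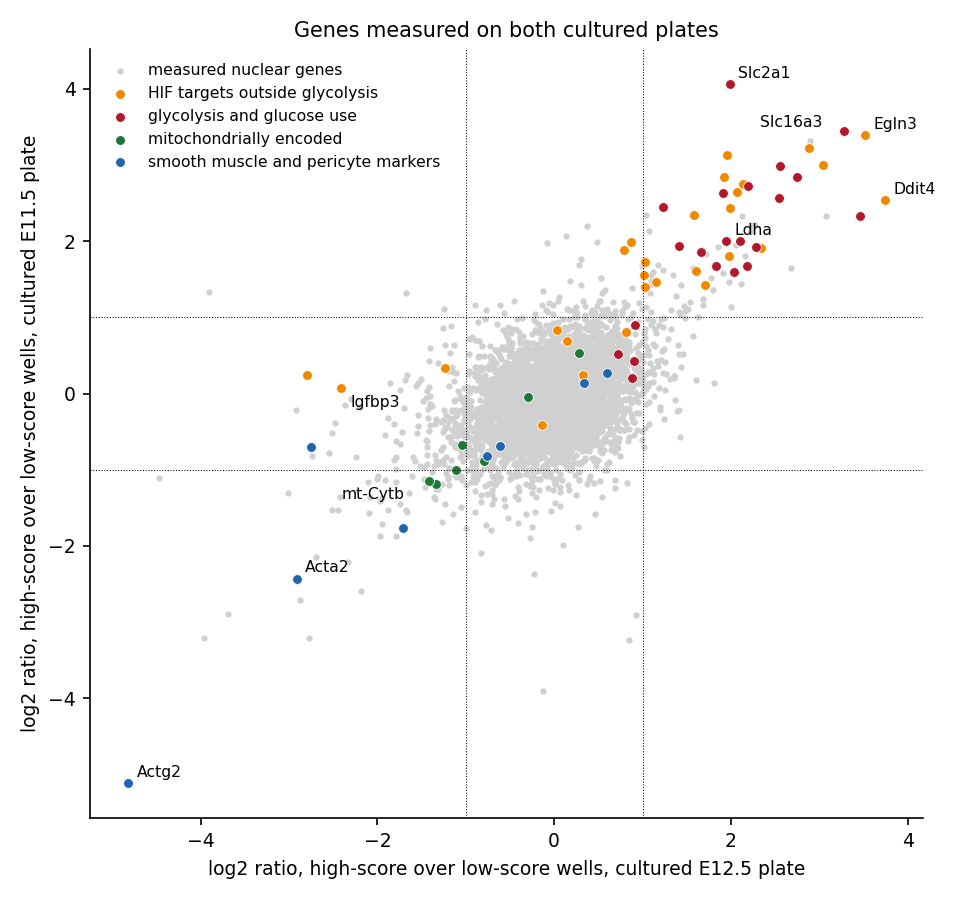
Log2 ratio of CPM, high-score over low-score wells, for each measured gene on the cultured E12.5 plate (x axis) and the cultured E11.5 plate (y axis); grey points are measured nuclear genes, coloured points are members of 4 lists, and dotted lines mark 2-fold. Of the HIF targets (orange) 18 of 28, and of the glycolysis genes (red) 17 of 21, lie beyond 2-fold at the upper right. The genes mt-Cytb, Acta2 and Actg2 lie in the lower left, and Igfbp3 is low on the x axis only.

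The 14 highest genes by the counting interval nearest to 1 were Slc16a3, Pgk1, Ndufa4l2, Egln3, P4ha2, Fgf11, Ddit4, Pfkl, Gpi1, Hk2, Pdk1, Fam162a, Ldha and Eno1. Slc16a3 encodes the exporter through which glycolytic cells release lactate. On the cultured E12.5 plate it ranged over 0 to 1818 CPM with a median of 433 in high-score wells, against 0 to 853 CPM with a median of 0 in low-score wells, and 3 of 75 high-score and 49 of 75 low-score wells of the cultured E11.5 plate had none. Its summed level was 445 CPM in high-score wells against 45.9 CPM in low-score wells, a ratio of 9.69 (6.72 to 14.4), and on the cultured E11.5 plate the ratio was 10.9 (7.85 to 15.6). Most high-score wells were therefore above most low-score wells, with overlap at the extremes. Pgk1, the phosphoglycerate kinase that makes ATP in glycolysis, ranged over 0 to 3714 CPM with a median of 1592 in high-score wells, against 0 to 1151 CPM with a median of 156 in low-score wells on the cultured E12.5 plate. On the cultured E11.5 plate it ranged over 0 to 3106 CPM with a median of 1325 in high-score wells, against 0 to 1435 CPM with a median of 81.8 in low-score wells. The ratios of the sums were 6.74 (5.72 to 7.99) and 7.19 (6.02 to 8.64), with the median high-score well above the highest low-score well on the cultured E12.5 plate and below it on the cultured E11.5 plate.

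Promoters of Slc16a3, Pgk1, Egln3 and P4ha2 are shown because these are the highest-ranked genes with a single promoter in the RefSeq table, which covers 250 bases before to 50 bases after the annotated start in build GRCm38.p6. Ndufa4l2, ranked between them, has no entry. Sequences run 5′ to 3′ on the gene's strand in lower case, and capitals mark the letters ACGTG or GCGTG and, where the other strand carries them, CACGT or CACGC. The windows are Slc16a3 at chr11:120948817-120949116, plus strand; Pgk1 at chrX:106186850-106187149, plus strand; Egln3 at chr12:54203825-54204124, minus strand; and P4ha2 at chr11:54100674-54100973, plus strand.
Slc16a3: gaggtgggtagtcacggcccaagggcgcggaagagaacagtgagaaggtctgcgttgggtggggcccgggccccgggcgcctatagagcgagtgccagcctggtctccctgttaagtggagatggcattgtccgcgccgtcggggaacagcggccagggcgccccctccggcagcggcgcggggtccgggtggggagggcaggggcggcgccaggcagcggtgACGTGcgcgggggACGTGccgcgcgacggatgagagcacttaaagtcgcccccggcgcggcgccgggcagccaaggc
Pgk1: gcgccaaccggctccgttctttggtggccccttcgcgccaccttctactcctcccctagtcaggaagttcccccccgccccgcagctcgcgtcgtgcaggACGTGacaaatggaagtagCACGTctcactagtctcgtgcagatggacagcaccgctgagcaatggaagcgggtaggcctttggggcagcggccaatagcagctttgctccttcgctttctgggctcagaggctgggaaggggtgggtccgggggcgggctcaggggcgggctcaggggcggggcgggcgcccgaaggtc
Egln3: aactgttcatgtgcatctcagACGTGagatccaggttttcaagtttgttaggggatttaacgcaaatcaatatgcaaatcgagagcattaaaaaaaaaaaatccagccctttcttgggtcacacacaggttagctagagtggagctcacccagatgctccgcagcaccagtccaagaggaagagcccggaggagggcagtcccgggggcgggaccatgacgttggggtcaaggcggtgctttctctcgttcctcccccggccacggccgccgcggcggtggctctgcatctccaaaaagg
P4ha2: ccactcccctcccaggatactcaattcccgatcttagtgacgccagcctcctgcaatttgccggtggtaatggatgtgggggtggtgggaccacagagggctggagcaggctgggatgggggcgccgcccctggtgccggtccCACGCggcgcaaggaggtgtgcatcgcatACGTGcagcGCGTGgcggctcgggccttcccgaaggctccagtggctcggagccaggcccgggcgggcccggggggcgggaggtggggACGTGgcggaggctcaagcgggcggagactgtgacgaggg
In Slc16a3 the ACGTG letters begin 27 and 14 bases before the start, in Pgk1 150 and 131 bases before it, and in Egln3 229 bases before it. P4ha2 holds ACGTG 78 bases before the start and again after it, with GCGTG letters 107 and 69 bases before the start. Of the 14 highest genes 10 have exactly 1 promoter in the table, and 7 of these hold ACGTG on either strand, among them Hk2 and Ddit4, while Fgf11 and Gpi1 hold neither core. Of the 77 higher genes 57 have a promoter in the table and 54.4% of these hold ACGTG, against 19.05% of the 42 lower genes with one and 31.4% of 3873 measured genes with one. Among all 27025 genes with a promoter it was in 21.8%, and among all 32851 RefSeq promoters, counted singly, in 19.6%. Of the 41 measured members of the HIF target and glycolysis lists with a promoter, 65.9% held ACGTG, and 35 of the 77 higher genes belong to these lists. GCGTG was found in 61.4% of the higher, 61.9% of the lower and 60.1% of all measured genes, and the mean GC content of the windows was 63.2%, 62.2% and 62.6%. A match describes letters in a window and is not a binding site, and genes with several listed promoters have more windows in which to match.

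Among the genes of oxygen sensing itself, Egln3 and Egln1, prolyl hydroxylases that are themselves HIF targets, were higher in high-score wells on both plates. Egln3 stood at 124 CPM in high-score wells against 10.8 CPM in low-score wells on the cultured E12.5 plate, a ratio of 11.45 (5.44 to 27.8), and its ratio was 10.5 (6.04 to 19.7) on the cultured E11.5 plate. Egln1 ranged over 0 to 1767 CPM with a median of 582 in high-score wells, against 0 to 881 CPM with a median of 0 in low-score wells on the cultured E11.5 plate, with ratios of 3.79 and 7.17 on the cultured E12.5 and E11.5 plates. Of the 7 measured of 12 listed genes of the sensing machinery none passed 2-fold on both plates in either direction. With 1.54% of all genes higher and 1.1% lower, a count of 0 among 7 is near the background. Hif1a, the alpha subunit, had ratios of 0.587 and 0.773, with 25 of 50 high-score and 22 of 50 low-score wells without a count on the cultured E12.5 plate. Arnt, its partner, had ratios of 1.43 and 1.45, and Egln2 had 1.31 and 0.695. Epas1, the second alpha subunit, was under the count minimum on the cultured E11.5 plate, with 4 counts in high-score wells and 86 in low-score wells of the cultured E12.5 plate, and 4 and 28 on the cultured E11.5 plate.

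Of 47 listed HIF targets outside glycolysis 28 were measured, and 18 of them were higher and none lower on both plates. Over all 4992 genes 1.54% were higher and 1.1% lower. The median log2 ratios of the list were 1.37 and 1.76, against -0.02 and -0.07 over all 4992 genes. The list holds the score genes' own class of targets, so the count of 18 describes how far other targets went with the 4 that chose the wells. Vegfa, the secreted growth factor of blood vessels, ranged over 0 to 1446 CPM with a median of 453 in high-score wells, against 0 to 1792 CPM with a median of 66.5 in low-score wells on the cultured E12.5 plate and 0 to 4032 CPM with a median of 901 in high-score wells, against 0 to 1507 CPM with a median of 113 in low-score wells on the cultured E11.5 plate. Its ratios were 4.20 (3.29 to 5.41) and 6.24 (5.18 to 7.58), and the wells overlapped. The collagen prolyl hydroxylases P4ha2 and P4ha1, which stabilise the collagen triple helix, had ratios of 7.39 and 9.30 for P4ha2 and 3.002 and 5.06 for P4ha1. Plod2, a collagen lysyl hydroxylase, reached 2-fold on the cultured E11.5 plate alone, with 1.73 and 3.70, and Plod1 on neither, with 1.02 and 1.78.

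Targets that act in mitochondria formed another set. Ndufa4l2, a protein that dampens respiratory complex I, ranged over 0 to 1818 CPM with a median of 270.2 in high-score wells, against 0 to 784 CPM with a median of 0 in low-score wells on the cultured E12.5 plate, and had no count in 13 of 50 high-score and 41 of 50 low-score wells. Its ratios were 8.24 (5.61 to 12.4) and 7.999 (5.73 to 11.4). Higd1a, which modulates respiratory complexes, had ratios of 3.89 and 8.74, and Fam162a, a mitochondrial protein of hypoxic cell death, 4.39 and 6.73. Cox4i2, the oxygen-dependent isoform of cytochrome oxidase subunit 4, was not in the list and was singled out after its values were seen, with ratios of 8.44 and 5.01. Bnip3l, the paralogue of the score gene Bnip3, stood at 199.8 CPM in high-score wells against 109 CPM in low-score wells on the cultured E12.5 plate, a ratio of 1.83, and had a ratio of 3.98 on the cultured E11.5 plate.

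Among signalling and other targets, Ddit4, an inhibitor of mTORC1, stood at 398 CPM in high-score wells against 29.7 CPM in low-score wells on the cultured E12.5 plate and 397 CPM in high-score wells against 68.5 CPM in low-score wells on the cultured E11.5 plate. Its ratios were 13.4 (8.57 to 21.9) and 5.80 (4.30 to 7.95), intervals that do not overlap. Hilpda, which coats lipid droplets, had ratios of 5.07 and 3.77, Tfrc, the transferrin receptor, 3.27 and 2.70, and Gys1, muscle-type glycogen synthase, 3.98 and 5.42. Kdm3a, a histone demethylase that needs oxygen for catalysis, had 2.02 and 2.94, and Jmjd6, a hydroxylase with the same need, 2.03 and 3.31. Fgf11, an intracellular fibroblast growth factor outside the list, had 7.41 and 9.93.

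Some well-known targets stood apart. Igfbp3, a secreted binder of insulin-like growth factors, had ratios of 0.187 and 1.05 on the cultured E12.5 and E11.5 plates, with 55.4% of its counts on the cultured E12.5 plate in 1 well. Lox, which crosslinks collagen and elastin, had 0.425 and 1.26. Both were among the 3 of 28 members below 0.5 on the cultured E12.5 plate, and none of the 28 was below 0.5 on the cultured E11.5 plate. Stc1, Cited2, Hmox1 and Loxl2 passed 2-fold on neither plate.

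**Figure D3:**
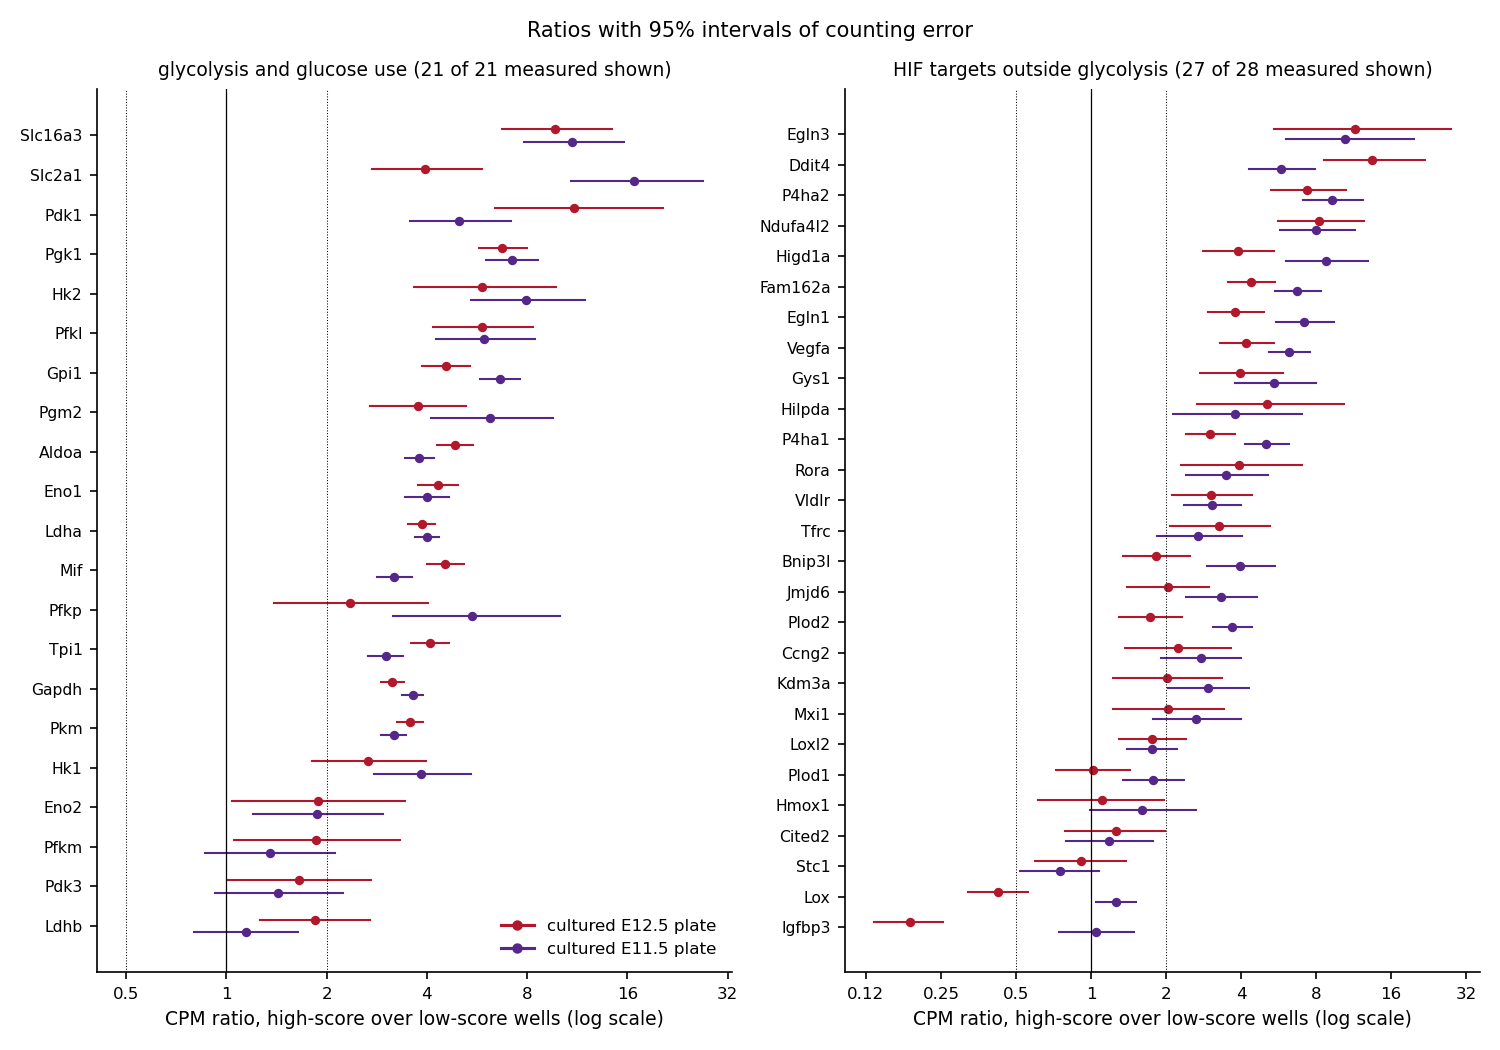
Ratio of CPM, high-score over low-score wells (log axis), of the 21 measured genes of glycolysis and glucose use (left) and 27 of the 28 measured HIF targets outside glycolysis (right), on the cultured E12.5 plate (red) and the cultured E11.5 plate (violet); bars are 95% intervals of counting error and dotted lines mark 2-fold. Slc16a3, Pgk1 and Egln3 lie far to the right on both plates, and Igfbp3 and Lox lie left of 1 on the cultured E12.5 plate only.

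Glycolysis was covered almost along its whole length. Of 28 listed genes 21 were measured, and 17 of them were higher and none lower on both plates. Their median log2 ratios were 1.99 and 1.997. Over all 4992 genes 1.54% were higher and 1.1% lower, with medians of -0.02 and -0.07. As for the HIF target list, the count of 17 describes how far these genes went with the 4 that chose the wells. For glucose entry, Slc2a1, the ubiquitous glucose transporter, stood at 219 CPM in high-score wells against 55.4 CPM in low-score wells on the cultured E12.5 plate and 484 CPM in high-score wells against 29.0 CPM in low-score wells on the cultured E11.5 plate. Its ratios, 3.96 (2.73 to 5.84) and 16.7 (10.8 to 27.0), were the most unequal of the list. Hexokinases Hk2 and Hk1, which trap glucose in the cell, had ratios of 5.87 and 7.92 for Hk2 and 2.67 and 3.85 for Hk1. The next steps followed with Gpi1 at 4.56 and 6.63, the phosphofructokinases Pfkl at 5.84 and 5.94 and Pfkp at 2.35 and 5.48, Aldoa at 4.85 and 3.79 and Tpi1 at 4.09 and 3.01.

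The steps from triose phosphate to lactate were also higher. Gapdh, which oxidises triose phosphate, stood at 3739 CPM in high-score wells against 1185 CPM in low-score wells on the cultured E12.5 plate, and its ratios were 3.15 and 3.63. Ldha, which turns pyruvate into lactate, ranged over 1356 to 6364 CPM with a median of 3233 in high-score wells, against 0 to 4565 CPM with a median of 745 in low-score wells on the cultured E12.5 plate and 522 to 8953 CPM with a median of 3554 in high-score wells, against 0 to 7610.4 CPM with a median of 719 in low-score wells on the cultured E11.5 plate. Its ratios were 3.86 (3.52 to 4.24) and 3.99 (3.68 to 4.34), and every high-score well had Ldha counts. Eno1 had ratios of 4.31 and 3.99 and Pkm 3.55 and 3.18. Pdk1, the kinase that shuts pyruvate out of the citrate cycle, had 11.04 and 5.01. The members that did not pass 2-fold on both plates were mostly alternative isoforms: Pfkm at 1.86 and 1.35, Eno2 at 1.89 and 1.87, Ldhb, which favours the reverse reaction, at 1.85 and 1.15, and Pdk3 at 1.65 and 1.43.

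Mouse Gapdh and other glycolytic genes have many near-identical processed copies, so their reads could be split by the counting. Of the 77 higher genes 10 carry names of the form Gm plus a number, all of them pseudogenes in the RefSeq table, and their levels are uncertain for this reason. They are Gm6498, Gm11658, Gm15191, Gm5863, Gm11185, Gm8055, Gm3809, Gm4654, Gm10290 and Gm9619, and the table does not pair them with parent genes.

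Summed over the list within each well, glycolysis and glucose use ranged over 7234 to 42237 CPM with a median of 23312 in high-score wells, against 1686 to 18800.3 CPM with a median of 4814 in low-score wells on the cultured E12.5 plate. On the cultured E11.5 plate the sum ranged over 9659 to 44557 CPM with a median of 24235 in high-score wells, against 1604 to 30929 CPM with a median of 5001 in low-score wells. The median high-score well thus held more glycolytic transcript than the highest low-score well on the cultured E12.5 plate, and less than the highest on the cultured E11.5 plate. HIF targets outside glycolysis summed to 2317 to 12377 CPM with a median of 6805 in high-score wells, against 0 to 5551 CPM with a median of 2581 in low-score wells on the cultured E12.5 plate, and to 3967 to 19768 CPM with a median of 10082 in high-score wells, against 994 to 6753 CPM with a median of 2643 in low-score wells on the cultured E11.5 plate. As a description over all kept wells of a plate, the Spearman rho between score and glycolysis sum was 0.74 on the cultured E12.5 plate (200 wells) and 0.76 on the cultured E11.5 plate (300 wells), and for the HIF target sum 0.71 and 0.77. Score and sums share each well's depth as denominator, and rho between score and nuclear counts was -0.14 and -0.03.

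**Figure D4:**
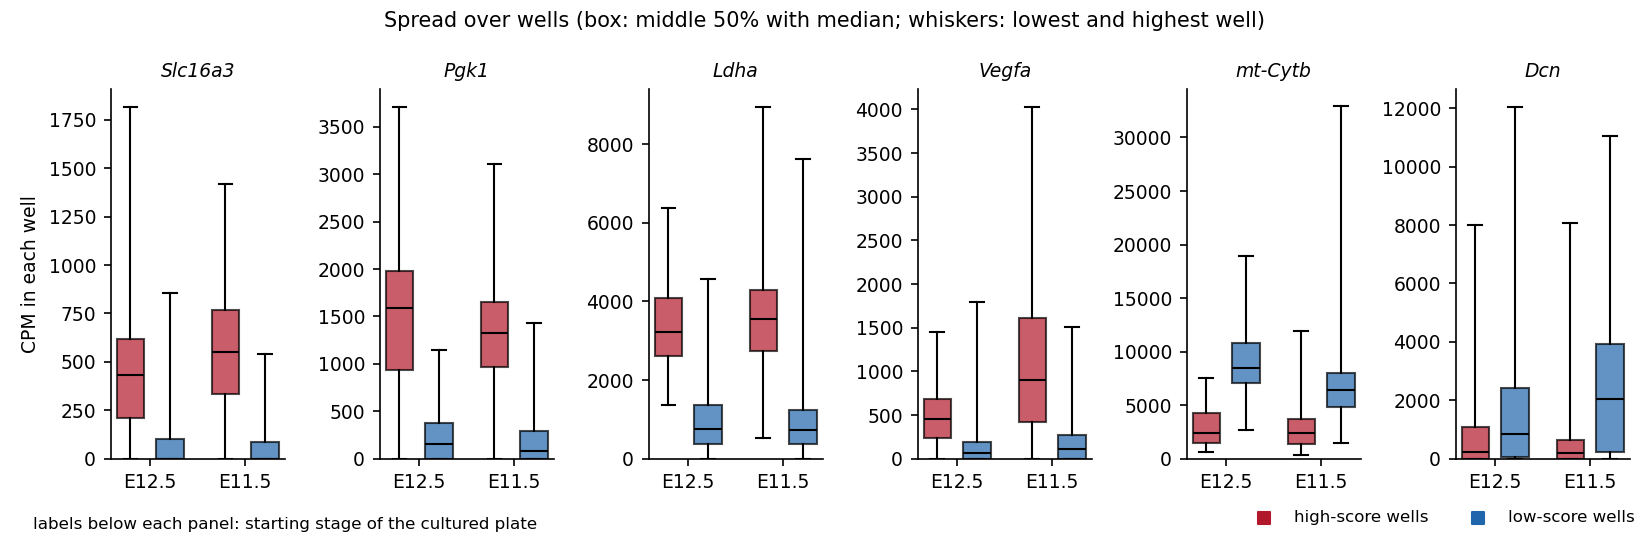
CPM in each well for 6 genes in high-score wells (red) and low-score wells (blue) of the cultured E12.5 plate (50 wells each) and the cultured E11.5 plate (75 wells each); boxes span the middle 50% of wells with the median, and whiskers reach the lowest and highest well. Slc16a3 and Pgk1 boxes of high-score wells lie above those of low-score wells, mt-Cytb boxes lie below, and Dcn boxes overlap.

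The levels changed step by step with the score rather than at its end alone. With the kept wells of a plate divided into 4 groups of rising score, Pgk1 stood at 239, 351, 1039 and 1613 CPM on the cultured E12.5 plate and at 187, 224, 619.6 and 1345 CPM on the cultured E11.5 plate. Ldha stood at 862, 1274, 2605 and 3329.7 CPM and at 956, 1274, 2368 and 3818 CPM. Vegfa stood at 123, 199, 409.9 and 517 CPM and at 171, 269.9, 426 and 1069.8 CPM, with its widest step into the highest group on the cultured E11.5 plate. Of the 21 glycolysis genes, 16 on the cultured E12.5 plate and 18 on the cultured E11.5 plate were higher at each of the 3 steps, and of the 28 HIF targets 15 and 16 were.

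**Figure D5:**
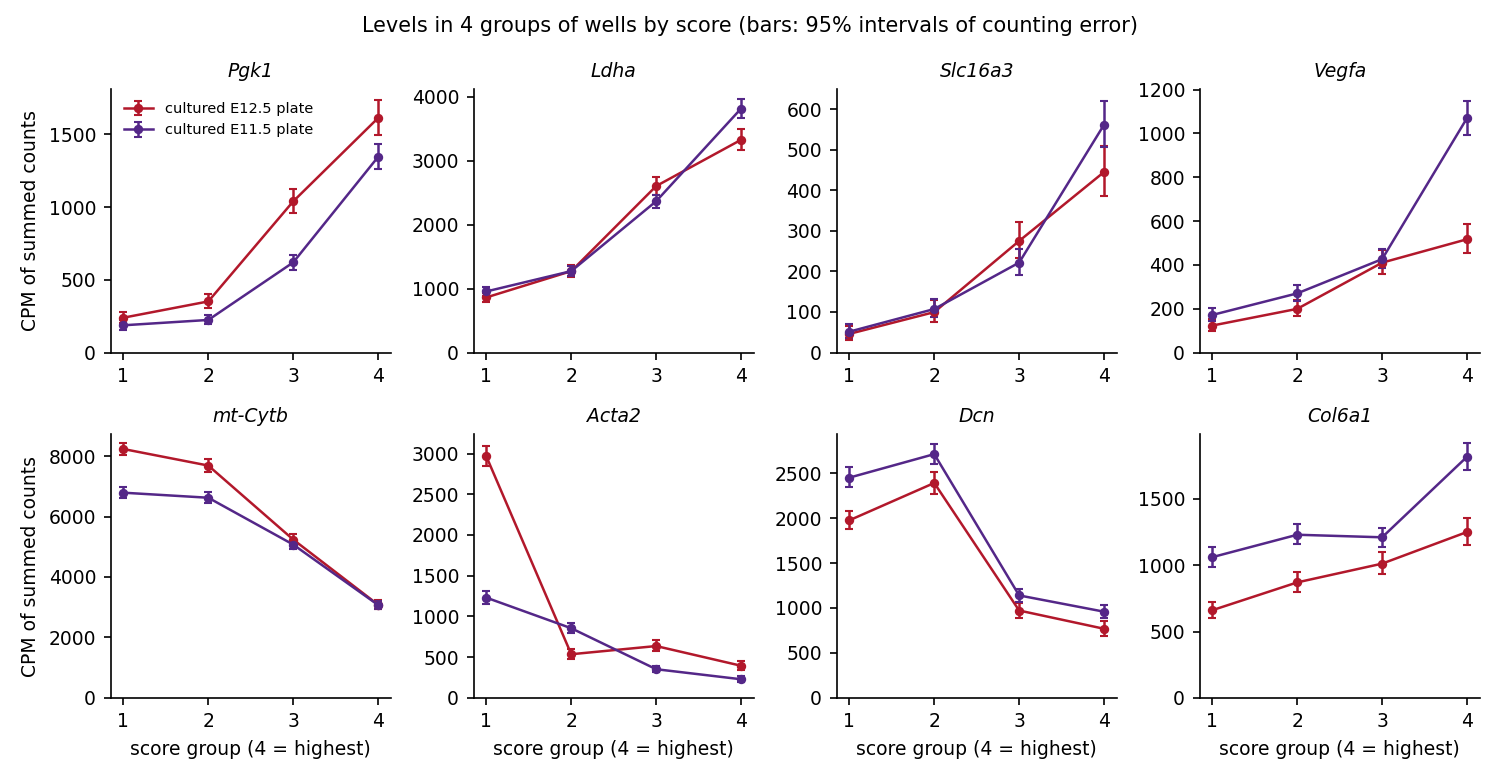
CPM of summed counts (y axis) of 8 genes in 4 groups of kept wells by score (25% of wells each), from the lowest to the highest (x axis), on the cultured E12.5 plate (red) and the cultured E11.5 plate (violet); bars are 95% intervals of counting error. Pgk1, Ldha, Slc16a3 and Vegfa climb with the score, mt-Cytb declines at each step, and Acta2 and Dcn decline unevenly.

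Mitochondrial transcripts ran the other way. Of 7 measured mitochondrially encoded genes 3 were lower and none higher on both plates, with median log2 ratios of -1.04 and -0.89, although these genes are counted outside the 4992. mt-Cytb, a core subunit of complex III, ranged over 642 to 7498 CPM with a median of 2422 in high-score wells, against 2698 to 18939 CPM with a median of 8459.9 in low-score wells on the cultured E12.5 plate and 369.9 to 11936 CPM with a median of 2418 in high-score wells, against 1492 to 32901 CPM with a median of 6371 in low-score wells on the cultured E11.5 plate. Its summed level per 1000000 nuclear counts was 3082 CPM in high-score wells against 8233 CPM in low-score wells, a ratio of 0.374 (0.353 to 0.397), and on the cultured E11.5 plate the ratio was 0.453 (0.430 to 0.476). The median high-score well lay below the lowest low-score well on the cultured E12.5 plate but not on the cultured E11.5 plate.

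The complex I genes mt-Nd4 and mt-Nd5 had ratios of 0.395 and 0.438 for mt-Nd4 and 0.464 and 0.497 for mt-Nd5. mt-Nd2 had 0.487 and 0.624, mt-Nd1 0.578 and 0.541, mt-Co1 0.811 and 0.967, and mt-Nd6, the subunit read from the light strand, 1.22 and 1.45. The sum of the list ranged over 4545 to 38449 CPM with a median of 10602 in high-score wells, against 12260.4 to 61739 CPM with a median of 32758 in low-score wells on the cultured E12.5 plate. Over all kept wells rho between the score and the mitochondrial percentage was -0.60 on the cultured E12.5 plate and -0.41 on the cultured E11.5 plate. Gm10925, a nuclear pseudogene whose RefSeq synonyms include mt-Atp6, was among the 14 lowest nuclear genes with ratios of 0.315 and 0.341, and reads of the mitochondrial gene could be counted there.

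Of 32 measured nuclear respiratory chain genes and 14 measured citrate cycle genes none passed 2-fold on both plates, counts near the background of 1.54% higher and 1.1% lower. Their median log2 ratios were 0.00 and -0.28 for the chain and 0.01 and -0.22 for the cycle. Among chain genes 5 were above 1 on both plates and 14 below 1 on both. Summed per well, the chain ranged over 3890.0 to 17759 CPM with a median of 8456 in high-score wells, against 4539.8 to 15074 CPM with a median of 9044 in low-score wells on the cultured E12.5 plate and 3071 to 10002 CPM with a median of 6519.6 in high-score wells, against 3269 to 12989 CPM with a median of 7740.1 in low-score wells on the cultured E11.5 plate, so that the groups overlapped nearly throughout. The lowest members on the cultured E11.5 plate were Uqcrq, of complex III, at 0.744 and 0.475 and Atp5g1, of the ATP synthase, at 0.941 and 0.503. Slc25a5, the ADP/ATP carrier of the inner membrane, was not in the list but was among the 14 lowest genes, with 202 CPM in high-score wells against 438 CPM in low-score wells on the cultured E12.5 plate and ratios of 0.461 and 0.477. Under the 15 alternatives of the processing chosen at the start its log2 ratio ranged from -1.20 to -0.14 on the cultured E12.5 plate. On the cultured E11.5 plate it ranged from -1.25 to -0.39.

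The 14 lowest genes were Gata2, Mgp, Zfp536, Col4a1, Gm10925, Synpo, Tpm1, Bmp4, Myl9, Col4a2, Npdc1, Slc25a5, Gm29216 and B2m. Contractile and matrix genes are among them. Acta2, smooth muscle actin, ranged over 0 to 13261 CPM with a median of 146 in high-score wells, against 0 to 17965 CPM with a median of 292 in low-score wells on the cultured E12.5 plate. On the cultured E11.5 plate it ranged over 0 to 2091 CPM with a median of 163 in high-score wells, against 0 to 10717 CPM with a median of 225 in low-score wells. The sums gave ratios of 0.133 (0.114 to 0.155) and 0.185 (0.156 to 0.220), while the medians per well differed less than the sums. Of its counts 31.5% and 35.4% lay in 1 well of each plate, which keeps Acta2 out of the 14. Tagln, an actin-binding protein of smooth muscle, had ratios of 0.136 and 0.153, Myl9, a myosin light chain, 0.233 and 0.449, and Tpm1, a tropomyosin, 0.329 and 0.471. Of 29 measured genes of matrix and myofibroblasts 6 were lower and none higher on both plates, with median log2 ratios of -0.88 and -0.55. Over all 4992 genes 1.1% were lower and 1.54% higher, with medians of -0.02 and -0.07. The others of the 6 were Fbln5 at 0.235 and 0.339 and Timp2 at 0.484 and 0.454.

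Markers of smooth muscle and pericytes moved with these genes in part. Of 10 such markers 8 were measured and 3 of them, Acta2, Actg2 and Rgs5, were lower on both plates, beside 1.1% lower of all genes. In all 6 of the 8 were below 1 on both plates, and 2, Des and Notch3, were above 1 on both. Over all kept wells rho between the score and the sum of these markers was -0.05 on the cultured E12.5 plate and -0.09 on the cultured E11.5 plate. Actg2 had 90.6% of its counts on the cultured E11.5 plate in 1 well. The markers summed to 1065 CPM in high-score wells against 5027 CPM in low-score wells of the cultured E12.5 plate, and to 748 against 2418 CPM on the cultured E11.5 plate. Medians per well were much nearer, at 698 against 739 CPM and 592 against 714 CPM. When wells rich in these markers were left out of both plates and the groups taken again, an alternative chosen after seeing the data, the ratio of Acta2 was 0.455 and 0.370, that of Tagln 0.247 and 0.254, and that of Rgs5 1.01 and 0.746. Myl9 then stood at 0.381 and 0.661, and Tpm1 at 0.632 and 0.576. Acta2 and Tagln thus stayed more than 2-fold lower without those wells, and Rgs5, Myl9 and Tpm1 did not on both plates. Acta2 and Rgs5 are among the markers by which those wells were left out, so their ratios here are not independent of that choice.

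Of 17 measured collagens, Col4a1 and Col4a2, which build the basement membrane, were lower on both plates and none was higher, beside 1.1% lower of all genes. Col4a1 stood at 578 CPM in high-score wells against 1392 CPM in low-score wells on the cultured E12.5 plate, a ratio of 0.415 (0.361 to 0.475), and had a ratio of 0.439 (0.381 to 0.503) on the cultured E11.5 plate. Col4a2 had 0.427 and 0.485. Col6a1, of the beaded filaments of type VI, was above 1 on both, with 1251 CPM in high-score wells against 661 CPM in low-score wells on the cultured E12.5 plate and 1818 CPM in high-score wells against 1061 CPM in low-score wells on the cultured E11.5 plate, ratios of 1.89 and 1.71. Of the fibril collagens, Col1a1 had 0.640 and 0.950, Col3a1 0.605 and 0.837 and Col5a1 0.886 and 1.09. Col1a2 had 0.445 and 0.643, past 2-fold on the cultured E12.5 plate alone, and Col5a2 0.565 and 0.399, past 2-fold on the cultured E11.5 plate alone. A difference between collagen types was not tested. Mgp, an inhibitor of calcification in matrix, ranged over 0 to 9517 CPM with a median of 81.2 in high-score wells, against 0 to 16264 CPM with a median of 227 in low-score wells on the cultured E12.5 plate, and its ratios were 0.425 (0.375 to 0.482) and 0.366 (0.310 to 0.428). With Bnip3 left out of the score, its log2 ratio on the cultured E12.5 plate turned to 1.47. With wells of over 3 times the median depth left out, with wells weighted equally, or with wells rich in smooth muscle markers left out, none of the collagens was lower on both plates.

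Stromal identity genes went both ways. Of 30 listed 23 were measured, and on both plates Dlk1 alone was higher and Dcn alone lower by 2-fold. Over all genes 1.54% were higher and 1.1% lower, so 1 gene each way is little beyond the background. Dlk1, a Notch-like regulator of differentiation, ranged over 0 to 9328 CPM with a median of 382 in high-score wells, against 0 to 5968 CPM with a median of 102 in low-score wells on the cultured E12.5 plate and had ratios of 2.89 (2.53 to 3.31) and 2.30 (2.08 to 2.54). Dcn, the proteoglycan decorin, ranged over 0 to 8055 CPM with a median of 194 in high-score wells, against 0 to 11064 CPM with a median of 2051 in low-score wells on the cultured E11.5 plate and had ratios of 0.389 (0.345 to 0.437) and 0.391 (0.357 to 0.428), with 26.7% of its counts on the cultured E12.5 plate in 1 well. Both genes overlapped widely between the groups. Foxd1, which marks cortical stroma progenitors, had 2.23 and 1.73, Penk, which encodes an opioid precursor, 1.51 and 2.15, the proteoglycan gene Lum 0.622 and 0.382 and the growth factor gene Igf1 0.610 and 0.289. Pdgfra and Tcf21, broad markers of stroma, had 1.23 and 1.24 for Pdgfra and 1.203 and 1.35 for Tcf21. With wells weighted equally, no gene of the list was higher and 4 were lower on both plates.

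Of the other low genes, Bmp4, a secreted morphogen of the periureteric mesenchyme, had ratios of 0.237 (0.125 to 0.417) and 0.390 (0.260 to 0.572), and Gata2, a zinc finger transcription factor, 0.271 and 0.348. Synpo, an actin-associated protein listed as a podocyte marker, had 0.288 and 0.274. On the cultured E12.5 plate 23.9% of the counts of Bmp4 and 17.4% of those of Synpo lay in 1 well. Under the 15 alternatives of the processing chosen at the start, log2 ratios on that plate ranged from -2.57 to -0.57 for Bmp4 and from -1.85 to -0.09 for Synpo. On the cultured E11.5 plate they ranged from -2.10 to -0.94 for Bmp4 and from -2.14 to -1.46 for Synpo. B2m, the light chain of class I histocompatibility molecules, had 0.464 and 0.466, and Bst2, an interferon-induced antiviral protein, 0.364 and 0.426, with 40.9% and 34.0% of its counts in 1 well of each plate. They were the 2 of 6 measured interferon response genes lower on both plates, beside 1.1% lower of all genes. Of these 6 genes 3 were above 1 on both plates, and the median log2 ratios of the list were -0.31 and 0.05.

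Other cell types were unevenly spread, in few wells. Endothelial markers summed to 97.7 CPM in high-score wells against 1578 CPM in low-score wells of the cultured E12.5 plate, with 13810.2 CPM in 1 low-score well, and to 72.2 against 133 CPM on the cultured E11.5 plate. Macrophage and leukocyte markers summed to 372 against 340 CPM on the cultured E12.5 plate and to 267 against 2519 CPM on the cultured E11.5 plate. Epithelial and early nephron markers summed to 182 against 103 CPM and to 570 against 100 CPM, with Krt8 at 46 counts in high-score wells and 1 in low-score wells of the cultured E11.5 plate. Pecam1, which defines endothelium, had 1 count in high-score wells and 105 in low-score wells of the cultured E12.5 plate and none in either group of the cultured E11.5 plate, and Lyz2, of macrophages, had 13 and 344 counts on the cultured E11.5 plate. Six2, which defines nephron progenitors, had 64.1 and 42 counts on the cultured E12.5 plate and 11 and 6 on the cultured E11.5 plate, and markers of this list summed to 391 against 308 CPM and to 86.7 against 68.5 CPM. When wells carrying markers of 7 non-stromal types were left out, 61 genes were higher and 52 lower on both plates, of which 57 and 34 are among the 77 and the 55, and Pgk1 had ratios of 8.39 and 7.69. Stab1 and Mrc1, macrophage and endothelial scavenger receptors among the 55, then had 0.751 and 0.858 for Stab1 and 1.503 and 0.490 for Mrc1. B2m then had 0.533 and 0.745.

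Proliferation genes passed 2-fold on both plates in no case among 27 measured, a count near the background of 1.54% higher and 1.1% lower. Their median log2 ratios were -0.26 and -0.28, and 19 were below 1 on both. Genes of DNA synthesis were among the lowest, with Mcm5, a subunit of the replicative helicase, at 0.590 and 0.433, Tyms, thymidylate synthase, at 0.613 and 0.365, and Rrm2, of ribonucleotide reductase, at 0.582 and 0.548. Of genes of dividing cells, Mki67 had 0.834 and 1.01, Top2a 0.856 and 0.850 and Cenpf 0.996 and 0.916. The sum per well ranged over 0 to 11157 CPM with a median of 1389.8 in high-score wells, against 0 to 14985 CPM with a median of 2303 in low-score wells on the cultured E12.5 plate, so the groups overlapped. Cdkn1a, the p21 inhibitor of the cell cycle, had 1.24 and 3.41.

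Other stress programmes were also listed. Of 19 measured genes of the integrated stress response 2 were higher on both plates, Trib3, a pseudokinase induced by this response, at 2.34 and 3.08, and Vldlr, which is also in the HIF target list, at 3.04 and 3.06, beside 1.54% higher of all genes. The count was 1 under 6 of the alternative settings, among them groups taken within depth bins, and 0 without Bnip3 in the score or at a minimum of 200 counts. Atf4, its central transcription factor, had 1.29 and 1.44, and Asns, a standard target, 1.02 and 0.859. None of 14 measured genes of the unfolded protein response passed 2-fold on both plates, a count near the background. Hspa5, the chaperone that leads this response, had 0.894 and 1.31.

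The same rule on the uncultured plate picked wells of much lower score. Its high-score wells ranged from 1.65 to 13.5, against 0 in all 84 low-score wells, and because 172 of 337 wells were at 0 the low-score wells were drawn at random among them. There 88 of 5757 genes (1.53%) were at least 2-fold higher and 28 (0.486%) lower. Of 19 glycolysis genes measured 1 was higher, with a median log2 ratio of 0.33, and of 18 HIF targets 2 were, with a median of 0.18. Slc16a3 had a ratio of 2.91 (1.60 to 5.67) and P4ha2 3.34 (1.10 to 13.6), while Pgk1 had 1.09 (0.842 to 1.40) and Vegfa 0.989 (0.685 to 1.43). Mitochondrially encoded genes had a median log2 ratio of 0.04, and the median mitochondrial share was 7.18% in high-score wells and 7.58% in low-score wells. Over the 337 wells rho between score and glycolysis sum was 0.14. A score of a few counts ranks wells less surely, and the difference between cultured and uncultured wells was not tested.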

How the data were processed

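The authors deposited a table of transcript counts per gene and well for each of the 3 plates. Per the submitters' processing notes STAR 2.6.1a, featureCounts 1.5.2 and build GRCm38.p5 were used. The deposited values are estimated counts, corrected for the limited number of molecular identifiers as the values show, and 1.53% of those above 0 on the cultured E12.5 plate and 1.43% on the cultured E11.5 plate are not whole. They were summed as deposited. A column of unassigned barcodes held 4.27% of counts on the cultured E12.5 plate, 4.26% on the cultured E11.5 plate and 4.21% on the uncultured plate and was not used.

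Wells labelled as controls or as holding several cells were left out, and wells were kept with at least 1000 nuclear counts (spike-ins, mitochondrial genes and added sequences left out) and at most 30% mitochondrial counts, which left 200, 300 and 337 wells of 327, 327 and 369. Summed nuclear counts of high- and low-score wells were 460523 and 740141 on the cultured E12.5 plate and 692467 and 758751 on the cultured E11.5 plate. The plates reuse the same well barcodes, of which 190 were kept on both cultured plates and 13 were high-score wells on both. No doublet caller was run.

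Counts were summed per group of wells and given as counts per 1000000 nuclear counts, with exact Poisson 95% intervals, and ratios with Clopper-Pearson intervals of the split of counts (scipy 1.17.1, with pandas 2.3.3 for the tables, matplotlib 3.10.9 for the figures and numpy 2.4.6, under Python 3.11.15). A gene needed 50 counts over both groups on each cultured plate. The named genes are the 14 highest and 14 lowest, ranked by the interval limit nearest to 1 on the plate where it is nearer, leaving out genes with over 25% of counts in 1 well, plus members of the 35 lists that a description needed. Of the members counted in the lists, 2 are not reported here by themselves. The scripts were tested on simulated data. Members, lists and rules were chosen with earlier results of these data known. The settings varied were the score genes, the share of wells taken, depth, gene minimum, scaling, weighting and the wells left out.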

Additional observations from a re-analysis of the deposited data

Results flagged for a closer look

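In 3 genes the ratio of high-score over low-score wells was over 2-fold in opposite directions on the cultured plates, and the difference between the plates was not tested. Col18a1, the collagen whose fragment is endostatin, had a log2 ratio of -1.68 on the cultured E12.5 plate, where 65.2% of its counts lay in 1 well, and 1.32 on the cultured E11.5 plate. Nts, the neuropeptide neurotensin, had a log2 ratio of -3.91 on the cultured E12.5 plate, from 2 counts in high-score wells and 48.2 in low-score wells with 70.1% of them in 1 well, and 1.33 on the cultured E11.5 plate. Cpe, carboxypeptidase E of the secretory pathway, had -1.25 and 1.11, with 58.6 against 139 CPM on the cultured E12.5 plate and 91.0 against 42.2 CPM on the cultured E11.5 plate. For Cpe at most 19.3% of the counts on the cultured E12.5 plate lay in 1 well.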

How the results depend on the processing

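No paired analysis was possible because each condition has 1 plate and no result comes from a test. Results were recomputed under 15 alternatives chosen at the start and 3 added after seeing the data (groups taken within the upper and the lower rows, wells rich in smooth muscle markers left out, and multi-cell wells only). Of the counts of genes, 198 of 240 values under the first and 37 of 48 under the second kept to the reported count. Keeping means equal to it or within 1.5 times it, so a count of 0 that stayed at 0 is included. Several reported counts were 0, among them both directions for respiratory chain and proliferation genes. These shares therefore do not measure how far counts above 0 held. Of the ratios of the named genes, 740 of 840 and 94 of 167 moved by less than their counting interval, and 2 and 6 changed direction.

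Against 77 genes higher and 55 lower, the score without Bnip3 gave 50 and 30, a gene minimum of 20 counts gave 184 and 165, and a minimum of 200 gave 23 and 17. Genes lower were 27 without wells over 3 times the median depth, 35 without smooth muscle-rich wells and 29 in multi-cell wells, of which 20, 27 and 0 are among the 55. For multi-cell wells the gene minimum was 20 counts instead of 50, and 1575 genes were measured against 4992. Counts from multi-cell wells here and below are therefore not on the same footing as the reported ones. Without Bnip3, 32 of the 50 higher and 13 of the 30 lower are among those reported, and in multi-cell wells 18 of 60 higher. HIF targets higher, 18 as reported, were 11 without Bnip3, 6 at the minimum of 200 and 5 in multi-cell wells, and 1 was lower at the minimum of 20. Glycolysis genes higher, 17 as reported, were 11 at the minimum of 200, where fewer genes are tested. In multi-cell wells 1 respiratory chain gene was higher, and with wells weighted equally 1 proliferation gene was lower; proliferation medians gave no value in multi-cell wells.

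Integrated stress response genes higher, 2 as reported, were 1 without Ndrg1 in the score, with wider groups of 1 in 3 wells, with equal weights, within depth bins, without deep wells and without wells of other cell types, and 0 without Bnip3 and at the minimum of 200. Collagens lower, 2 as reported, were 1 without Slc2a3 or Bnip3, with wider groups and with the median log2 ratio set to 0, and 0 with equal weights, without deep wells, within upper and lower rows, without smooth muscle-rich wells and in multi-cell wells. Stroma genes higher, 1 as reported, were 0 without Bnip3 or Ndrg1, with wider groups, with equal weights, within depth bins, without deep wells and in multi-cell wells, and 2 without row P. Stroma genes lower, 1 as reported, were 4 without Slc2a3 or Bnip3 and with equal weights. They were 3 with wider groups, without deep wells and without row P, and 2 without Ndrg1, at a well minimum of 3000 counts, without wells of other cell types, within upper and lower rows, without smooth muscle-rich wells and in multi-cell wells.

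Without Bnip3 the log2 ratio on the cultured E12.5 plate turned to 1.47 for Mgp and 0.45 for Npdc1. In multi-cell wells it turned on the cultured E11.5 plate to 1.78 for Col4a1, 1.97 for Tpm1, 2.91 for Bmp4, 2.84 for Myl9 and 1.96 for Col4a2, and on the cultured E12.5 plate to 0.34 for B2m. The multi-cell groups held 9 wells each. On the cultured E11.5 plate their median nuclear counts were 13176 in high-score and 2651 in low-score wells. The cause was not tested.

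The main limits are that each condition is 1 plate, that wells of a plate are not replicates, and that intervals cover counting error only. The score rests on few counts per well, so wells at 0 in a shallow library need not lack the transcripts. High-score wells held fewer counts than low-score wells. Within depth bins 68 genes were higher and 38 lower, of which 60 and 31 are among those reported, and within upper and lower rows 65 and 37, of which 59 and 31 are.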

Other observations

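Ribosomal protein genes were above 1 on both plates in 40 of 41 measured cases, with median log2 ratios of 0.46 and 0.26 (cultured E12.5 plate first, here and below) and none at 2-fold on both. The exception was Rplp1, at 1.03 and 0.921. Cholesterol synthesis genes were above 1 on both plates in 14 of 15 cases, with medians of 0.45 and 0.55, and Lss, lanosterol synthase, alone passed 2-fold on both, at 3.42 and 2.87. Immediate early genes had medians of 0.25 and 0.68, with none of 19 at 2-fold on both. Over all measured genes 1.54% were higher and 1.1% lower by 2-fold on both. Fos had 1.27 and 1.45 and Atf3 0.417 and 1.81.

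Among 18 measured imprinted growth genes, Nnat alone was lower and Dlk1 alone higher by 2-fold on both plates. Over all genes 1.1% were lower and 1.54% higher, so 1 gene each way is little beyond the background. Nnat, a proteolipid of the endoplasmic reticulum, had 0.198 and 0.217, with 36.7% of its counts on the cultured E12.5 plate in 1 well. Igf2 had 0.525 and 1.67, with 31.1% of its counts on the cultured E12.5 plate in 1 well, and H19 had 0.892 and 1.81. The added NeoR sequence stood at 130 CPM in high-score wells against 44.6 CPM in low-score wells of the cultured E12.5 plate, a ratio of 2.92 (1.88 to 4.61), and at 196 against 59.3 CPM on the cultured E11.5 plate, 3.31 (2.35 to 4.75). The tdTom reporter sequence had ratios of 1.67 and 0.984. Neat1, a nuclear long noncoding RNA, had 3.22 and 2.37, and Sox9, a transcription factor listed as a chondrocyte marker, 2.37 and 1.501.

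In wells labelled as holding more than 1 cell, split into groups of 9 wells on each cultured plate, Slc16a3 had ratios of 6.19 and 3.86 and Ldha 2.54 and 2.34. Vegfa had 0.942 and 1.23 there.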
